A study of Rattus norvegicus with 8 samples.

Results

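Lin28a, Lin28b, L1td1, Dppa4, Utf1 and Trim71 are 6 genes that pluripotent stem cells and early embryos are known to express, whichever pluripotent state they are in. They were chosen by symbol from the 22228 named genes of an expression table of rat cells, and all 6 passed the filter on low values, a level of at least 1 TPM (a read share corrected for transcript length, on a scale with the same total in every library) in at least 2 libraries. They were followed across 4 groups of cells that lead from embryonic stem cells, through epiblast-like cells, to cultured cells resembling primordial germ cells, from which sperm and eggs descend. All 6 genes had their highest mean in epiblast-like cells. For Trim71 the lead over the day 3 germ cell-like cells did not pass the test. Afterwards the genes differed. Utf1 stayed high, Lin28a kept part of its gain, and Dppa4, L1td1 and Lin28b ended below their level in embryonic stem cells.

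LIN28A and its paralog LIN28B are RNA-binding proteins that recognise the loop of let-7 microRNA precursors and block their maturation, and that also bind many messenger RNAs. With LIN28A, the terminal uridylyl transferases TUT4 and TUT7 add uridines to the precursor, and the exonuclease DIS3L2 degrades it. Mature let-7 is known in mammals to repress growth and cell-cycle genes as well as Lin28a, Lin28b and Trim71 themselves. In mouse, LIN28A is needed for normal numbers of primordial germ cells. TRIM71 is a TRIM-NHL protein that binds and represses messenger RNAs and is a let-7 target from worms to mammals. L1TD1 is an RNA-binding protein derived from the open reading frame 1 protein of a LINE-1 retrotransposon, and it has been found with LIN28 in human pluripotent cells. DPPA4 is a SAP-domain chromatin protein that with DPPA2 keeps developmental promoters in a poised state, and UTF1 is a chromatin-bound protein known to limit PRC2 binding at such promoters.

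All cells were of the rat strain Crlj:WI, and their labelled genotype is wild type throughout, although a reporter of Nanos3 was used for sorting. The embryonic stem cells (ESC) were kept on mouse embryonic fibroblast feeders in N2B27 medium with the MEK inhibitor PD0325901 at 1 µM, the GSK3 inhibitor CHIR99021 at 3 µM and rat LIF at 1000 U/ml. Epiblast-like cells (EpiLC) were aggregates cultured for 60 h in 1% KSR with bFGF at 12 ng/ml and activin A at 20 ng/ml. Primordial germ cell-like cells of day 3 (PGCLC_d3) had received LIF at 1000 U/ml, EGF at 50 ng/ml, SCF at 100 ng/ml and BMP4 at 500 ng/ml for that time, and cells positive for a Nanos3-T2A-tdTomato reporter were sorted. The group PGCLC_d3ag3 was made by mixing 5000 such cells with 50000 somatic cells from female E15.5 gonads depleted of c-KIT-positive cells, and sorting reporter-positive cells again after 3 more days. The labels give 5% KSR for this culture. PGCLC_d3ag3 thus differs from PGCLC_d3 in medium, somatic cells, 3 more days and a second sort, and these cannot be told apart. There are 2 libraries per group and 8 in total. Whether replicates are separate cultures is stated by no label, so the p-values reflect spread among these samples that may be technical. These are bulk samples, so fewer cells of a type and less RNA per cell cannot be told apart.

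Replicates of a group correlated at 0.995 to 0.998 (Pearson's r across 13571 tested genes). The steps between low values gave relative depths of 1 to 1.5 for the ESC, EpiLC and PGCLC_d3 libraries. For the PGCLC_d3ag3 libraries the estimates were 1.09 and 1.19, and values larger by a factor of 2 (2.17 and 2.38) were also tried. At the estimates 27.4% and 25.1% of low values were whole steps (within 0.1), and at the larger values 47.1% and 51.8%. In the other libraries this share was 71.6% to 91.7%, so the depth in PGCLC_d3ag3 was not settled. Each ESC marker was highest in ESC, the EpiLC markers Otx2, Pou3f1 and Dnmt3b were highest in EpiLC, and each marker of germ cell specification was highest in a germ cell-like group. Fgf5, another epiblast marker, was at or near 0 in every library. Ddx4, a marker of later germ cells, was at 51.7 and 57.6 TPM in ESC and 162 and 134 TPM in EpiLC, and the endothelial marker Tie1 was at 55.5 and 53.2 TPM in ESC. Summed over 6 markers of germ cell specification, the level was 1424 to 1431 TPM in PGCLC_d3 and 930 TPM in both PGCLC_d3ag3 libraries, against 32.9 and 33.4 TPM in EpiLC.

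The let-7 family is shown because its precursors are what LIN28 proteins bind and its seed is the part that pairs with target messenger RNAs. Mature let-7a, the most familiar member, and let-7d, whose first base differs, are printed 5′ to 3′ with the seed (bases 2 to 8) in capitals; all 9 different mature 5p sequences of let-7 and miR-98 in the RefSeq table (build GRCr8) share it, and no other of its 693 mature miRNA names does. Below them are 3 hairpins with the LIN28-recognised letters GGAG in capitals where they lie between the mature arms.
let-7a: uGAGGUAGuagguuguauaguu
let-7d: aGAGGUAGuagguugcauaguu
let-7g hairpin: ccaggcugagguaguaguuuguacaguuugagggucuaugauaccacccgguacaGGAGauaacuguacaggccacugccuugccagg
let-7c-2 hairpin: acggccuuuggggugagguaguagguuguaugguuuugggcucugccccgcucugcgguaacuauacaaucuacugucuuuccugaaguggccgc
miR-98 hairpin: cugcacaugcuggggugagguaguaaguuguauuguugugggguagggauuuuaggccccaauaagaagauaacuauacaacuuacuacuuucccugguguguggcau

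The let-7g hairpin lies at chr8:115701020-115701107 on the plus strand, and its GGAG starts at base 56. The let-7c-2 hairpin (chr7:118683623-118683717, plus strand) and the miR-98 hairpin (chrX:24460648-24460755, plus strand) lack these letters there. GGAG was found between the arms in 8 of the 10 let-7 and miR-98 hairpins with both arms annotated, on the strand of the RNA and allowing it to reach 2 bases into the second arm. Among all 263 rat hairpins with both arms annotated, 25 (9.51%) hold it. A match is a description of the letters, and let-7 levels were not analysed here.

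Lin28a was lowest in ESC, with 111 and 99.1 TPM, and highest in EpiLC, with 538 and 547 TPM. It was at 175 and 157 TPM in PGCLC_d3 and at 200.0 and 229 TPM in PGCLC_d3ag3. No 2 groups overlapped, and each step in the order of levels, ESC, PGCLC_d3, PGCLC_d3ag3 and EpiLC, passed the test. Lin28b was less abundant in all 8 libraries. Its levels were 41.4 and 47.4 TPM in ESC, 73.0 and 77.8 TPM in EpiLC, 33.2 and 36.1 TPM in PGCLC_d3 and 31.1 and 30.4 TPM in PGCLC_d3ag3. So the paralogs shared their peak but not their low point: Lin28b was below its ESC level in both germ cell-like groups, where Lin28a was above its own. The last 2 groups of Lin28b did not overlap, but their difference did not pass the test.

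Trim71, the TRIM-NHL protein gene, was at 39.6 and 47.3 TPM in ESC, 70.6 and 75.6 TPM in EpiLC, 67.8 and 69.7 TPM in PGCLC_d3 and 28.0 and 46.6 TPM in PGCLC_d3ag3. As deposited, its pattern had a high pair, EpiLC and PGCLC_d3, whose difference did not pass the test, and a low pair, ESC and PGCLC_d3ag3, whose libraries overlapped. The lower PGCLC_d3ag3 library lay below both ESC libraries and the other lay within their range.

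L1td1 was among the most abundant transcripts before germ cell induction, with 424 and 434 TPM in ESC and 584 and 632 TPM in EpiLC. It was at 177 and 190.3 TPM in PGCLC_d3 and at 210.3 and 127 TPM in PGCLC_d3ag3. The 2 PGCLC_d3ag3 libraries lay on either side of both PGCLC_d3 libraries. A share of 7.23% and 12.7% of tested genes had a higher TPM than L1td1 in the PGCLC_d3ag3 libraries, against 3.25% and 3.14% in the ESC libraries.

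Dppa4 covered the widest range of the 6 genes. It was at 79.9 and 74.5 TPM in ESC, 176 and 174 TPM in EpiLC, 31.9 and 29.6 TPM in PGCLC_d3 and 15.0 and 13.7 TPM in PGCLC_d3ag3. All 4 groups were apart, and the span from EpiLC to PGCLC_d3ag3 was 3.52 on the log2(TPM+1) scale, against 0.995 to 2.36 for the other 5 genes.

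Utf1 was the most abundant member in every library. It was at 899 and 834 TPM in ESC, 1865 and 1813 TPM in EpiLC, 1432 and 1504 TPM in PGCLC_d3 and 1430.2 and 1489.9 TPM in PGCLC_d3ag3. The 2 germ cell-like groups overlapped and lay between ESC and EpiLC. A share of 0.273% to 0.53% of tested genes had a higher TPM than Utf1 in EpiLC and in both germ cell-like groups.

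**Figure D1:**
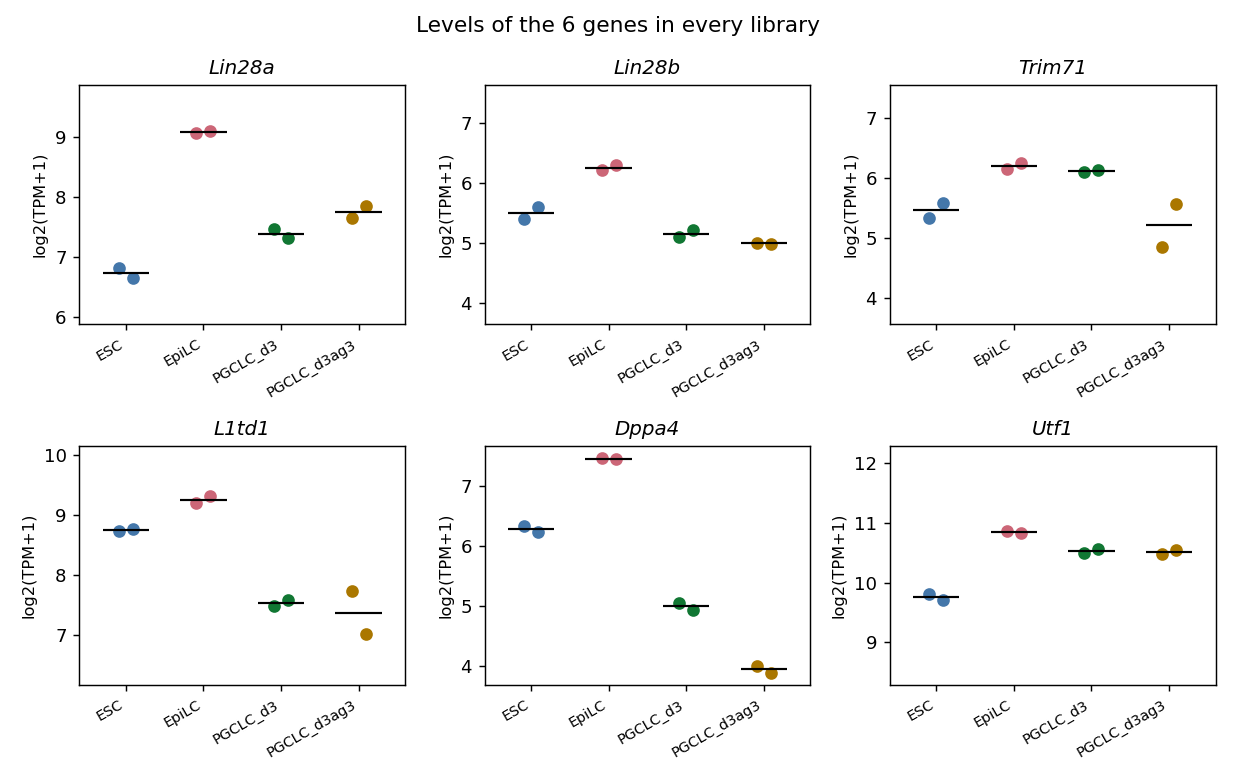
Level of each gene, log2(TPM+1), in the libraries of ESC, EpiLC, PGCLC_d3 and PGCLC_d3ag3; points are libraries, lines are means of 2, and every panel spans the same range of log2 units. All 6 genes are highest in EpiLC, and Dppa4 runs lowest, to 13.7 TPM in PGCLC_d3ag3, while Utf1 stays between 1430.2 and 1504 TPM after EpiLC.

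The start regions of Lin28a and Utf1 are shown because both genes stayed above their ESC level in the germ cell-like groups. Each is 250 bases before to 50 bases after the transcription start in RefSeq, build GRCr8, with motif matches in capitals. Lin28a lies at chr5:151527835-151528134 on the minus strand and Utf1 at chr1:204169704-204170003 on the plus strand.
Lin28a: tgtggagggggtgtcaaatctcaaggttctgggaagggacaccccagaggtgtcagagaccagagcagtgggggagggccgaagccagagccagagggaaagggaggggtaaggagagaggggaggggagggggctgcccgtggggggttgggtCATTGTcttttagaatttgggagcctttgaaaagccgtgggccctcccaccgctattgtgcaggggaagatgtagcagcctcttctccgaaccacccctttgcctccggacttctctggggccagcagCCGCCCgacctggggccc
Utf1: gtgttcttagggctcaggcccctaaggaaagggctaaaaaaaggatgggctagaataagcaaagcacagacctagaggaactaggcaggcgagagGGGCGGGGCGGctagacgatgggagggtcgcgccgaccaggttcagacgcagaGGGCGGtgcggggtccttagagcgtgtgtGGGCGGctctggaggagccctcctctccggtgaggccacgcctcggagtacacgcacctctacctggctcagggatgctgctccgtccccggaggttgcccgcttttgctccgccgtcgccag

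Both strands were searched for the POU octamer ATGCAAAT, the SOX core CATTGT, the GC box GGGCGG and the TATA box TATAAA. The Utf1 window holds 4 GC boxes, starting 155, 150, 102 and 73 bases before the start; the first 2 share a base. The Lin28a window holds 1 SOX core, 96 bases before the start, and 1 GC box on the other strand, starting at base 33 after the start. A GC box is present in 33.1% of all 33469 such windows, a SOX core in 13.2%, a TATA box in 14.2% and the octamer in 1.78%. The octamer and the TATA box letters are in neither window. G and C make up 62.7% of the Lin28a window and 64% of the Utf1 window, against a median of 51.7% over all windows. The RefSeq table held windows for 5 of the 6 genes, all but Dppa4.

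All 6 genes had their highest mean in EpiLC, where 21.01% of tested genes had theirs. Lin28a and Utf1 were lowest in ESC, and the other 4 were lowest in PGCLC_d3ag3. In the limma fit of all 8 libraries, the threshold for a call was 0.05 on p-values adjusted by Benjamini-Hochberg across the 13571 genes. By that rule Lin28a, Lin28b, L1td1, Dppa4 and Utf1 were higher in EpiLC than in each of the other 3 groups, 5 of 6 genes, against 12.8% of tested genes. Trim71 missed only against PGCLC_d3.

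EpiLC were grown with activin A and bFGF, and ESC with the inhibitors and LIF. All 6 genes rose, against 35.4% of tested genes called higher and 31.8% called lower. No ESC library reached an EpiLC library for these genes. The share of all tested genes so separated was not computed, so this separation is only a description. Lin28a changed most: it averaged 543 ± 6.40 TPM in EpiLC and 105 ± 8.47 TPM in ESC (SD, n = 2 each), a log2 difference of 2.36 (SE 0.082, adjusted p = 6.87e-09). Only 3.21% of tested genes had a larger log2 rise. Dppa4 rose by 1.17 (SE 0.074, adjusted p = 4.41e-07) and Utf1 by 1.09 (SE 0.055, adjusted p = 9.37e-08). Lin28b rose by 0.75 (adjusted p = 2.63e-05) and Trim71 by 0.74 (adjusted p = 0.00537). The Trim71 call was lost without ESC replicate 1 (0.62, adjusted p = 0.0575). L1td1 rose by 0.50 (SE 0.175, adjusted p = 0.0279), and this call was lost with no filter on low values (adjusted p = 0.0771) and without any 1 of the 4 libraries compared (adjusted p = 0.0742 to 0.141). These SEs pool the spread of all 4 groups. On the log2 scale the SD of L1td1 was 0.0255 in ESC and 0.0806 in EpiLC, but 0.508 in PGCLC_d3ag3, a group not compared here. For Trim71 the SDs were 0.176, 0.0686 and 0.506 in the same groups. The median log2 difference was 0.92 over the 6 genes and 0.038 over all tested genes. Fibroblast and feeder markers, 8 in all, summed to 43.9 and 82.6 TPM in EpiLC and to 23.9 and 29.3 TPM in ESC, where Thy1 was at 0. The 6 endothelial and blood markers summed to 1.63 and 2.01 TPM in EpiLC and to 53.5 and 55.6 TPM in ESC, mostly Tie1. The part of these cells, and of the mouse feeders, in the result was not tested.

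In PGCLC_d3, after germ cell induction with BMP4 and sorting, 5 of the 6 genes were lower than in EpiLC and none was called higher. Over all tested genes 27.6% were called lower and 47.3% higher. Because this comparison shares the EpiLC libraries with the one above, a high value there enters both. Dppa4 fell most, to 30.8 ± 1.67 TPM in PGCLC_d3, against 175 ± 0.948 TPM in EpiLC (SD, n = 2 each), a log2 difference of -2.47 (SE 0.074, adjusted p = 2.56e-09). L1td1 fell by 1.72 (adjusted p = 1.05e-05), Lin28a by 1.70 (adjusted p = 5.66e-08) and Lin28b by 1.10 (adjusted p = 1.34e-06). Utf1 fell by 0.325 (SE 0.055, adjusted p = 0.00039), a value that was -0.60 with median-of-ratios rescaling and -0.21 with quantile normalization. Trim71 differed by -0.0865 (SE 0.185, adjusted p = 0.688), with 68.8 ± 1.37 TPM in PGCLC_d3 and 73.1 ± 3.52 TPM in EpiLC. That SE includes the PGCLC_d3ag3 spread (SD 0.506 on the log2 scale, against 0.0283 in PGCLC_d3 and 0.0686 in EpiLC). The Trim71 difference was -0.355 with median-of-ratios rescaling (adjusted p = 0.096) and -0.26 with quantile normalization (adjusted p = 0.197). So its level across these 2 groups depends on the scaling. The median was -1.40 over the 6 genes and 0.21 over all tested genes, which became -0.0186 after median-of-ratios rescaling and 0.013 after quantile normalization. Of the genes called, 63.2% were higher in PGCLC_d3 as deposited, 49% after median-of-ratios rescaling and 50.8% after quantile normalization. Fibroblast and feeder markers summed to 3.71 and 7.02 TPM in PGCLC_d3, with Dcn and Lum at 0, against 43.9 and 82.6 TPM in EpiLC, and their part in the result was not tested.

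During the 3 days with gonadal somatic cells the 6 genes did not share a direction. Lin28a rose, Dppa4 and Trim71 fell, and Lin28b, L1td1 and Utf1 did not pass the test. Over all tested genes 25.7% were called higher and 44.8% lower, and neither count of the 6 exceeds its share. Lin28a averaged 215 ± 20.6 TPM in PGCLC_d3ag3 and 166 ± 12.4 TPM in PGCLC_d3, a log2 difference of 0.365 (SE 0.082, adjusted p = 0.00281), which was 0.57 with median-of-ratios rescaling. Dppa4 averaged 14.4 ± 0.873 TPM in PGCLC_d3ag3 and 30.8 ± 1.67 TPM in PGCLC_d3, a difference of -1.05 (SE 0.074, adjusted p = 1.52e-06). Both PGCLC_d3ag3 libraries lay below both PGCLC_d3 libraries.

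Trim71 averaged 37.3 ± 13.2 TPM in PGCLC_d3ag3 and 68.8 ± 1.37 TPM in PGCLC_d3, a difference of -0.91 (SE 0.185, adjusted p = 0.00155). Without PGCLC_d3ag3 replicate 1 this difference was -0.55 (adjusted p = 0.0021). Lin28b differed by -0.164 (adjusted p = 0.107) and its sign turned with median-of-ratios rescaling (0.04) and with quantile normalization (0.06). L1td1 differed by -0.165 (adjusted p = 0.419), and here 1 library decided the direction. It was -0.52 (adjusted p = 0.000288) without PGCLC_d3ag3 replicate 1, and 0.19 (adjusted p = 0.034) without replicate 2. Utf1 differed by -0.008 (SE 0.055, adjusted p = 0.906), and by 0.20 (adjusted p = 0.0256) with median-of-ratios rescaling. The median was -0.16 over the 6 genes and -0.18 over all tested genes. Of the genes called, 36.4% were higher in PGCLC_d3ag3 as deposited, 49.7% after median-of-ratios rescaling and 49.9% after quantile normalization.

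Markers of somatic cells were low in the sorted cells. The 8 gonadal somatic markers summed to 11.4 and 16.2 TPM in PGCLC_d3ag3 and to 11.3 and 12.8 TPM in PGCLC_d3. Gata4 was at 2.66 and 2.55 TPM in PGCLC_d3 and at 4.70 and 5.12 TPM in PGCLC_d3ag3. Wt1 was at 0.0396 and 0.0614 TPM, then at 1.28 and 1.17 TPM. Foxl2, Nr5a1, Lhx9 and Wnt4 were also higher in both PGCLC_d3ag3 libraries, while Fst overlapped. Star went the other way, from 3.15 and 3.12 TPM to 0.551 and 0.741 TPM. Fibroblast markers summed to 12.0 and 15.3 TPM in PGCLC_d3ag3 and 3.71 and 7.02 TPM in PGCLC_d3. Endothelial and blood markers summed to 7.26 and 13.9 TPM in PGCLC_d3ag3, mostly Hbb, and to 2.87 and 3.90 TPM in PGCLC_d3, where Hbb was at 0. The part of these cells in the differences was not tested. The later germ cell markers Ddx4, Dazl and Mael summed to 1026 and 1059 TPM in PGCLC_d3ag3 and to 2.22 and 2.50 TPM in PGCLC_d3, beside 55.3 and 61.6 TPM in ESC and 150.0 and 180 TPM in EpiLC.

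**Figure D2:**
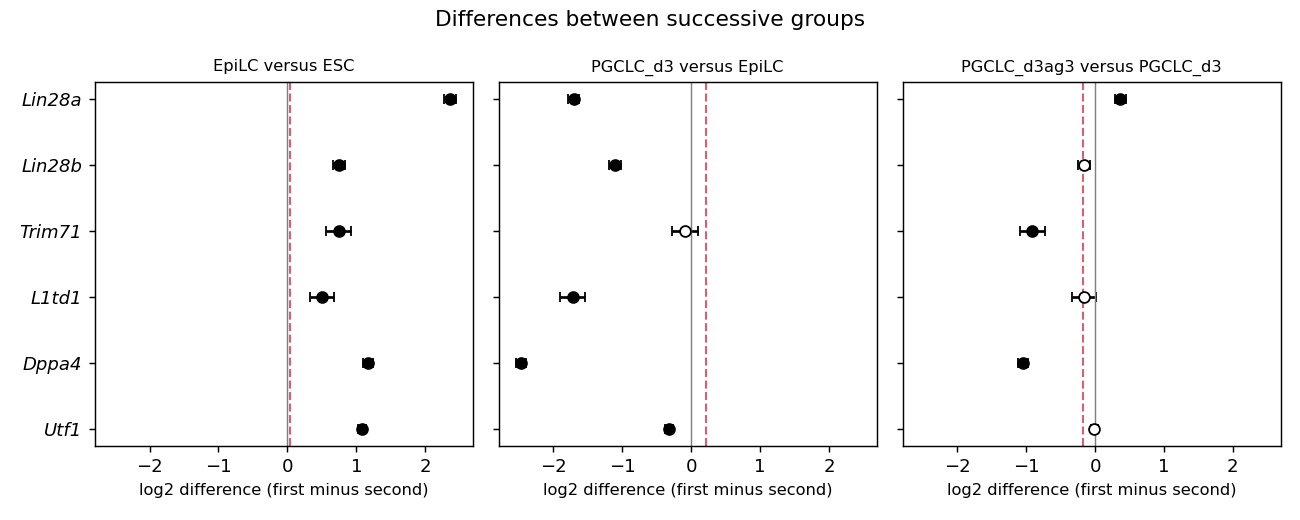
Log2 difference of each gene between successive groups, first group minus second, from the limma fit; bars are standard errors, filled points passed the test, and the dashed line is the median of all tested genes. All 6 genes are right of zero for EpiLC versus ESC, 5 are called lower for PGCLC_d3 versus EpiLC, and Lin28a alone is called higher for PGCLC_d3ag3 versus PGCLC_d3.

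Set against ESC, the cells of origin, PGCLC_d3 held 3 genes that rose and 3 that fell, beside 49.6% of tested genes called higher and 27.4% lower. Utf1 rose by 0.76 (adjusted p = 7.16e-07), Lin28a by 0.66 (adjusted p = 4.16e-05) and Trim71 by 0.66 (adjusted p = 0.0086). With median-of-ratios rescaling these were 0.46 for Utf1, 0.35 for Lin28a and 0.36 for Trim71, whose call was then lost (adjusted p = 0.0927), as it was without ESC replicate 1 (0.53, adjusted p = 0.0812). Dppa4 fell by 1.30 (adjusted p = 1.29e-07), L1td1 by 1.22 (adjusted p = 0.000111) and Lin28b by 0.35 (adjusted p = 0.00349). The value for Lin28b was -0.64 with median-of-ratios rescaling and -0.59 with quantile normalization. The median was 0.15 over the 6 genes and 0.25 over all tested genes, and 64.4% of called genes were higher in PGCLC_d3, against 50.3% after median-of-ratios rescaling and 52.3% after quantile normalization.

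In PGCLC_d3ag3 against ESC, 2 genes rose and 3 fell, beside 42.5% of tested genes called higher and 34.8% called lower. Lin28a rose by 1.02 (adjusted p = 1.6e-06) and Utf1 by 0.75 (adjusted p = 7.88e-07). Dppa4 fell by 2.35 (adjusted p = 2.69e-09), to 14.4 ± 0.873 TPM in PGCLC_d3ag3, against 77.2 ± 3.83 TPM in ESC. L1td1 fell by 1.38 (adjusted p = 4.53e-05), to 169 ± 58.6 TPM in PGCLC_d3ag3, against 429 ± 7.59 TPM in ESC. Lin28b fell by 0.51 (adjusted p = 0.000289). Trim71 differed by -0.25 (adjusted p = 0.235). It was -0.61 without PGCLC_d3ag3 replicate 2 (adjusted p = 0.000926) and 0.10 without replicate 1 (adjusted p = 0.39), so the 2 libraries gave opposite directions. The median was -0.38 over the 6 genes and 0.0885 over all tested genes.

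All 6 genes were lower in PGCLC_d3ag3 than in EpiLC, beside 36.7% of tested genes called lower and 41.0% called higher. Dppa4 fell by 3.52 (adjusted p = 3.5e-10), a fall that 1.11% of tested genes exceeded. L1td1 fell by 1.89, Lin28a by 1.34 and Lin28b by 1.27, with adjusted p of 4.62e-06 or less. Trim71 differed by -0.995 (adjusted p = 0.000685), and by -0.64 without PGCLC_d3ag3 replicate 1. Utf1 fell by 0.333 (adjusted p = 0.0003), the smallest fall of the 6. The median was -1.30 over the 6 genes and 0.049 over all tested genes.

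Ratios of TPM within a library do not depend on scaling between libraries. The ratio of Lin28a to Lin28b was 2.68 and 2.09 in ESC, 7.38 and 7.03 in EpiLC, 5.28 and 4.37 in PGCLC_d3 and 6.43 and 7.53 in PGCLC_d3ag3. Lin28a thus dominated the pair most in EpiLC and PGCLC_d3ag3, whose ratios overlapped, and least in ESC. The ratio of Utf1 to Dppa4, the chromatin proteins, was 11.3 and 11.2 in ESC and 10.6 and 10.4 in EpiLC, then 44.8 and 50.8 in PGCLC_d3 and 95.5 and 108 in PGCLC_d3ag3. The EpiLC and ESC ratios of this pair lay close together, and both germ cell-like groups lay far above them. The ratio of Lin28a to Trim71 was 2.81 and 2.098 in ESC, 7.62 and 7.24 in EpiLC, 2.58 and 2.26 in PGCLC_d3 and 7.14 and 4.92 in PGCLC_d3ag3, so ESC and PGCLC_d3 overlapped.

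**Figure D3:**
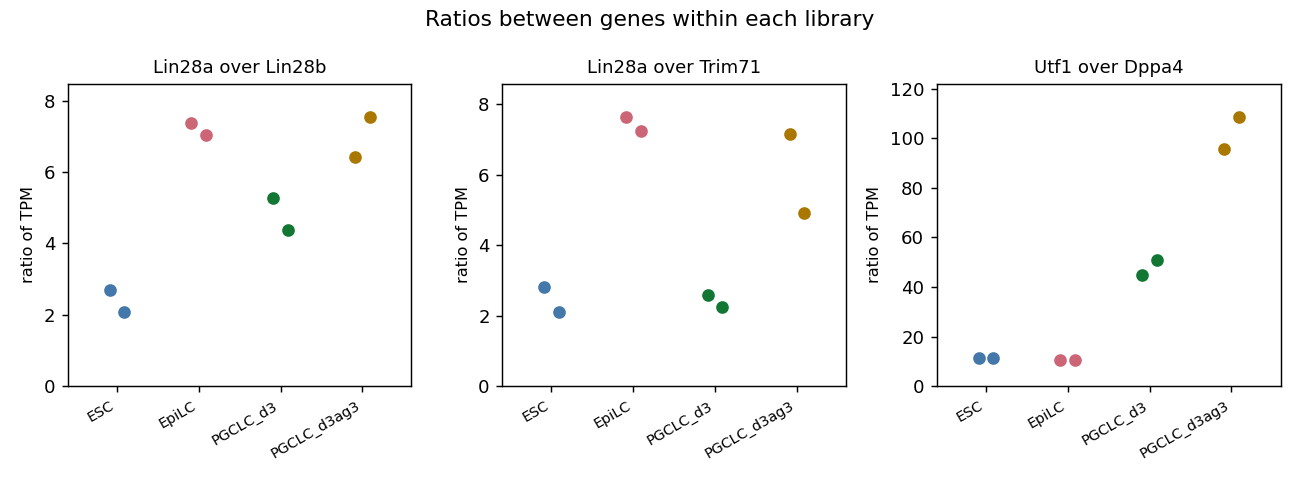
Ratio of TPM between pairs of genes in each library of ESC, EpiLC, PGCLC_d3 and PGCLC_d3ag3; each point is 1 library and the axes start at 0. Lin28a over Lin28b is lowest in ESC, at 2.09 and 2.68, and Utf1 over Dppa4 climbs to 95.5 and 108 in PGCLC_d3ag3.

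Genes reported elsewhere as let-7 or LIN28 targets moved both ways at the first and second step and mostly fell at the last. Of 26, 25 were tested (Fign was not). In EpiLC against ESC 12 rose and 8 fell, beside 35.4% of all tested genes called higher and 31.8% called lower, so the count that fell is near the share over all genes. The median was 0.15, against 0.038 over all tested genes. Hmga1, a chromatin architecture protein, averaged 1283 ± 45.9 TPM in EpiLC and 306 ± 17.9 TPM in ESC, a log2 difference of 2.06 (adjusted p = 1.44e-09). Igf2bp3, an oncofetal RNA-binding protein, rose by 1.86 and Irs2, an insulin receptor adaptor, by 1.81. The paralog Igf2bp2 went the other way and fell by 3.12, as did the growth factor receptor Igf1r by 2.32 and cyclin D1 (Ccnd1) by 1.94.

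In PGCLC_d3 against EpiLC 10 of these genes rose and 11 fell, beside 47.3% of all tested genes higher and 27.6% lower. With median-of-ratios rescaling 8 were higher and 14 lower, beside 36.1% and 37.6% of all tested genes. The median as deposited was -0.036, against 0.21 over all tested genes. Ccnd2, cyclin D2, averaged 333 ± 19.3 TPM in PGCLC_d3 and 4.66 ± 2.05 TPM in EpiLC, a difference of 5.93 (adjusted p = 2.07e-08). The surface receptor Prtg rose by 2.67 and the insulin receptor Insr by 1.51. Ccnd1 fell by 2.22, Irs2 by 1.80 and Hmga1 by 1.49. Thus the 2 D-type cyclins of the list moved in opposite directions.

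In PGCLC_d3ag3 against PGCLC_d3, 19 of the 25 fell and 3 rose, with a median of -0.57 against -0.18 over all tested genes, of which 44.8% were called lower and 25.7% higher. The count was 16 lower and 5 higher with median-of-ratios rescaling, and 16 lower and 4 higher with quantile normalization, beside 35.5% and 34.8% of all tested genes called lower under these scalings. Ccnd2 was back at 3.29 ± 0.842 TPM in PGCLC_d3ag3, against 333 ± 19.3 TPM in PGCLC_d3, a difference of -6.30 (adjusted p = 4.84e-08). Myc averaged 2.45 ± 0.638 TPM in PGCLC_d3ag3 and 24.9 ± 1.90 TPM in PGCLC_d3, a difference of -2.92 (adjusted p = 1.4e-07), and Ccnd1 fell by 2.88. Among those that rose, the phosphatase gene Cdc25a rose by 0.38 and the nuclear receptor gene Nr6a1 by 0.37.

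**Figure D4:**
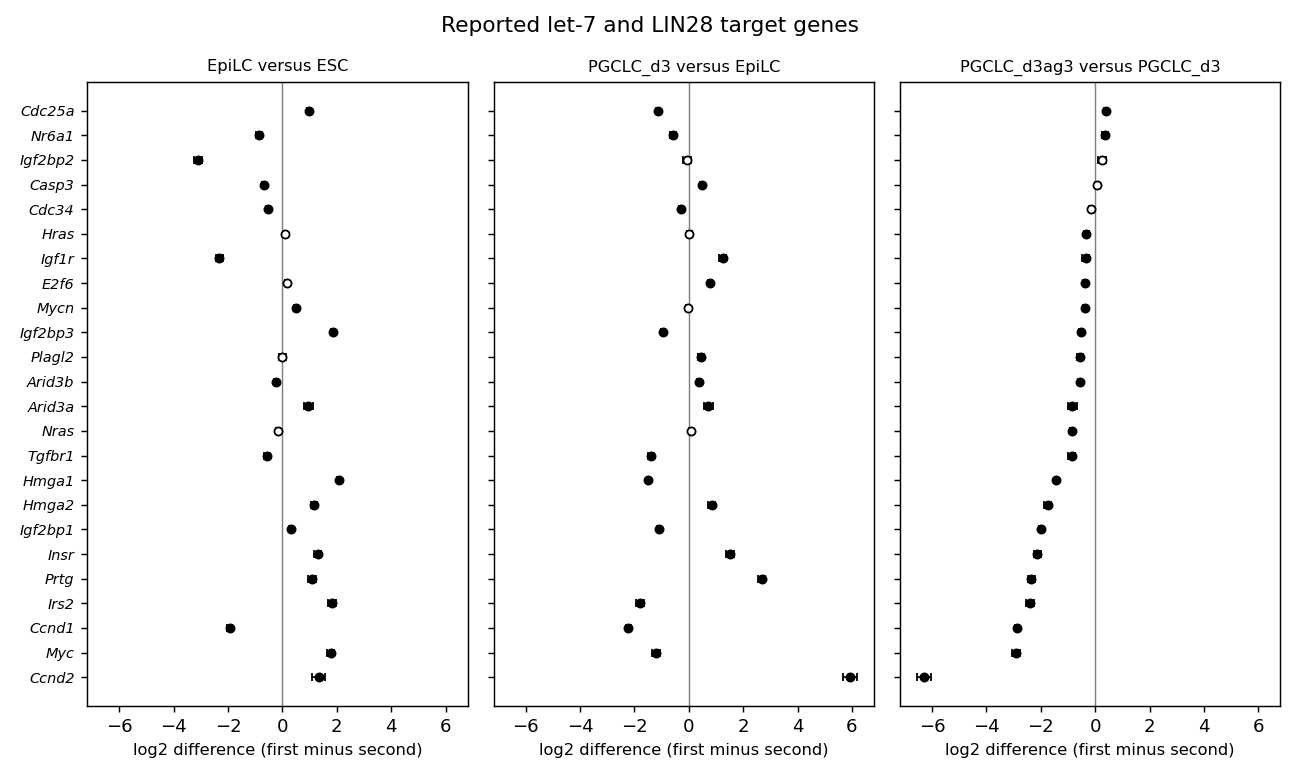
Log2 difference, first group minus second, of 24 of the tested let-7 and LIN28 target genes between successive groups, ordered by PGCLC_d3ag3 versus PGCLC_d3; bars are standard errors and filled points passed the test. In the last comparison 19 of the genes drawn are called lower and 2 higher, while the first and second are mixed, and Ccnd2 moves by 5.93 and then by -6.30.

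Genes that make and destroy small RNAs, let-7 among them, moved in both directions at each step. Of 19 tested genes of small RNA processing and let-7 turnover (Ago4 was not tested), 10 rose and 6 fell in EpiLC against ESC, with a median of 0.32 against 0.038 over all tested genes. The shares over all tested genes were 35.4% higher and 31.8% lower, and the count that fell is near the second. Tut4, the uridylyl transferase that acts with LIN28A, averaged 26.1 ± 0.265 TPM in EpiLC and 8.48 ± 1.45 TPM in ESC, a difference of 1.52 (adjusted p = 2.29e-06). Prkra, the PACT cofactor of Dicer, rose by 2.16 and Dgcr8, the partner of Drosha, by 0.75. Trim25, an RNA-binding ubiquitin ligase reported as a cofactor of LIN28A and TUT4, averaged 29.3 ± 1.11 TPM in EpiLC and 159 ± 7.06 TPM in ESC, a difference of -2.40 (adjusted p = 1.02e-09). Ago3 fell by 0.74 and Msi2 by 0.66.

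In PGCLC_d3 against EpiLC 8 of these genes rose and 9 fell, with a median of -0.17 against 0.21 over all tested genes, of which 47.3% were higher and 27.6% lower. With median-of-ratios rescaling 5 were higher and 11 lower, beside 36.1% and 37.6% of all tested genes. Trim25 rose by 2.33, to 151 ± 1.12 TPM in PGCLC_d3, against 29.3 ± 1.11 TPM in EpiLC. Tut7 rose by 0.81 and the exonuclease Dis3l2 by 0.77, while Prkra fell by 1.39, Syncrip by 1.22 and Dgcr8 by 1.12. In PGCLC_d3ag3 against PGCLC_d3, 4 rose and 12 fell under the deposited scaling and under both rescalings. Over all tested genes 25.7% were higher and 44.8% lower as deposited. These shares were 35% and 35.5% with median-of-ratios rescaling, and 34.6% and 34.8% with quantile normalization. The median as deposited was -0.70 over the list and -0.18 over all tested genes. Trim25 fell by 1.94 (adjusted p = 1.44e-08), the KH-domain protein gene Khsrp by 1.53 and Ago1 by 1.31. Prkra rose by 0.55, Msi2 by 0.51 and the helicase gene Ddx5 by 0.47.

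Among 10 tested partners, reported targets and relatives of TRIM71 (Inhbb was not tested), 5 rose and 2 fell in EpiLC against ESC, beside 35.4% and 31.8% of all tested genes, with a median of 0.36 against 0.038. The related Trim32 rose by 1.22 and Trim2 fell by 1.11; Egr1, a reported TRIM71 target, rose by 2.52, with 74.9 ± 3.16 TPM in EpiLC and 16.3 ± 15.7 TPM in ESC, where the replicates differed widely. In PGCLC_d3 against EpiLC the split was 5 higher and 3 lower as deposited, near the 47.3% and 27.6% of all tested genes. Under either rescaling it was 1 higher and 4 lower. The shares over all tested genes were then 36.1% and 37.6% with median-of-ratios rescaling, and 37.7% and 36.5% with quantile normalization. The median as deposited was 0.26, against 0.21 over all tested genes. Trim3 rose by 1.70 and Trim2 fell by 3.51, to 0.796 ± 0.138 TPM in PGCLC_d3, against 19.5 ± 1.68 TPM in EpiLC. In PGCLC_d3ag3 against PGCLC_d3, 7 of the 10 fell and none was called higher as deposited, beside 44.8% of all tested genes lower and 25.7% higher. The median was -0.47 over the list and -0.18 over all tested genes. With median-of-ratios rescaling 2 were called higher and 6 lower, beside 35% and 35.5% of all tested genes. With quantile normalization 1 was higher and 4 lower, beside 34.6% and 34.8%. The cell-cycle inhibitor Cdkn1a, a reported TRIM71 target, averaged 2.36 ± 0.153 TPM in PGCLC_d3ag3 and 6.35 ± 0.249 TPM in PGCLC_d3, a difference of -1.13 (adjusted p = 0.000195). Egr1 went the other way, from 75.6 and 96.9 TPM in PGCLC_d3 to 186 and 203 TPM in PGCLC_d3ag3, but was not called. The fit pools the spread of all 4 groups, and the ESC libraries of Egr1 were at 27.4 and 5.16 TPM.

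Of 14 PRC2 and UTF1-linked genes, all tested, 7 rose and 5 fell in EpiLC against ESC, beside 35.4% and 31.8% of all tested genes, with a median of 0.26 against 0.038. Phf1 averaged 16.8 ± 2.41 TPM in EpiLC and 2.19 ± 0.428 TPM in ESC, and Rbbp7 averaged 1003 ± 32.5 TPM and 449 ± 5.73 TPM. The catalytic subunit gene Ezh2 averaged 90.7 ± 1.03 TPM in EpiLC and 43.4 ± 1.02 TPM in ESC, a difference of 1.05 (adjusted p = 4.8e-07). Its paralog Ezh1 fell by 1.10, the accessory subunit gene Epop fell by 1.31 and Cdkn2a fell by 2.11. In PGCLC_d3 against EpiLC 5 rose and 5 fell, beside 47.3% and 27.6% of all tested genes, with a median of 0.0575 against 0.21. Ezh2 fell by 1.04 and the accessory subunit gene Aebp2 fell by 2.06. Phf19 went up, with 7.55 ± 0.126 TPM in PGCLC_d3 and 1.53 ± 0.225 TPM in EpiLC, as did Mtf2, with 123 ± 4.13 TPM and 63.3 ± 2.33 TPM. In PGCLC_d3ag3 against PGCLC_d3 Ezh2 rose by 1.01, to 89.0 ± 5.95 TPM in PGCLC_d3ag3, against 43.6 ± 1.14 TPM in PGCLC_d3, and 5 genes of the list rose and 6 fell (7 and 4 with median-of-ratios rescaling). Over all tested genes 25.7% were higher and 44.8% lower as deposited, and 35% and 35.5% with median-of-ratios rescaling. The median as deposited was -0.0122 over the list and -0.18 over all tested genes. Ezh2 thus alternated between a low and a high level over ESC, EpiLC, PGCLC_d3 and PGCLC_d3ag3. So did Rbbp4, with means of 250, 385, 219 and 314 TPM in that order, while the mean of Rbbp7 rose at each step (449, 1003, 1086 and 1485 TPM). Utf1 averaged 866, 1839, 1468 and 1460 TPM in the same groups.

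Other general pluripotency genes moved in both directions where the 6 rose together. Of 16 tested, 6 rose and 9 fell in EpiLC against ESC, beside 35.4% and 31.8% of all tested genes, with a median of -0.34 against 0.038. The de novo methyltransferase Dnmt3b rose by 4.21, the zinc finger gene Sall1 by 3.16 and the sialomucin gene Podxl by 2.03. Nanog fell by 7.30, to 4.89 ± 0.926 TPM in EpiLC, against 922 ± 14.9 TPM in ESC, with Gdf3 down by 3.75 and Sox2 by 3.14. In PGCLC_d3 against EpiLC 3 rose and 12 fell, beside 47.3% and 27.6% of all tested genes, with a median of -1.09 against 0.21. Nanog rose by 4.77, Sox2 by 3.18 and Sall4 by 1.18, while Dnmt3b fell by 6.46, the growth factor gene Fgf4 by 6.06 and Podxl by 4.39. In PGCLC_d3ag3 against PGCLC_d3 2 rose and 7 fell. With median-of-ratios rescaling these were 4 and 5, beside 35% and 35.5% of all tested genes. The count that fell as deposited is near the 44.8% of all tested genes called lower (25.7% were higher), and the medians were -0.19 over the list and -0.18 over all tested genes. Gdf3 rose by 1.02 and Sall1 by 0.33, while Podxl fell by 1.62, the NODAL co-receptor gene Tdgf1 fell by 1.24 and Sall4 by 0.75.

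The profiles of the 6 genes across the 8 libraries fell into kinds, given here as a description with libraries of the same 4 groups behind every value. Dppa4 and L1td1 correlated at a Pearson's r of 0.951, Dppa4 and Lin28b at 0.946 and L1td1 and Lin28b at 0.913. Lin28a and Utf1 correlated at 0.875, while Utf1 was at 0.058 with Dppa4 and -0.053 with L1td1. Trim71 had no value above 0.549, which it reached with Lin28b. So Lin28b ran closer to Dppa4 and L1td1 than to its paralog Lin28a (0.66).

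Among 5192 genes with a mean of at least 10 TPM in a group and a span of at least 1 on the log2 scale, those most like each member in profile were named by the same r. The nearest to Lin28a were Ube2e2 (0.996), Ppid and Mdk, of which Mdk, the growth factor midkine, averaged 670.4 ± 5.92 TPM in EpiLC and 93.7 ± 4.04 TPM in ESC. The nearest to Lin28b were Gclc (0.995), Ppip5k2 and Dgcr8, and to L1td1 Syncrip (0.985), Ggta1 and Aebp2. Dppa4 was nearest to Skp2 (0.998), Podxl and Hmox1; Podxl averaged 1.18 ± 0.262 TPM in PGCLC_d3ag3 and 139 ± 15.6 TPM in EpiLC. Utf1 was nearest to Ssbp3 (0.994), Mex3a and Mdm1, and Trim71 to Dhtkd1 (0.978), Arhgef7 and Rpap1. With quantile normalization Lin28a kept 1 of its 3 nearest genes, and L1td1 and Utf1 kept none.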

How the data were processed

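The 8 RNA-seq libraries, 2 in each of 4 groups, were grouped by the sample titles. RNA was prepared with a PicoPure kit and libraries with SMART-Seq v4 and KAPA Hyper Prep, per the labels' protocols. The submitters' processing notes name bcl2fastq 2.20, cutadapt 1.1.6, HISAT2 2.1.0, featureCounts (Subread 1.6.5) and the rat build rn7. How reads with several places, such as those of L1td1 and LINE-1 copies, were counted is not given in the sources used here. The authors deposited log2(TPM+1) values, from which TPM was taken back. The table has 33294 rows, of which 11066 are blank and were left out.

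Genes with at least 1 TPM in at least 2 libraries, 13571 in all, were fitted with limma 3.58.1 in R 4.3.3 (lmFit, eBayes with trend, 2-sided), all 4 groups together with 4 residual degrees of freedom, without the replicate number. The fit was tested on simulated data. Calls need p under 0.05 after Benjamini-Hochberg adjustment across all 13571 genes. SEs come from this fit and pool the spread of all 4 groups. For L1td1 and Trim71 they understate the spread within PGCLC_d3ag3 (SD 0.508 and 0.506 on the log2 scale). Log2 differences with the pseudocount of 1 understate changes of low genes. Relative depth came from the steps between low values; read totals are unknown. Sequences are from RefSeq, build GRCr8.

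The 6 genes and the 5 gene lists were chosen with earlier results of these data known. Named genes are the 6, the 3 most like each in profile, up to 3 largest rises and falls past the test per list and comparison, and cell markers; 1 gene that the rule names is not reported here. Alternatives were another pseudocount (0.1), no filter or a minimum of 5 TPM, median-of-ratios rescaling, quantile normalization, fitting only the groups compared, a replicate block and leaving out each library.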

Additional observations from a re-analysis of the deposited data

How the results depend on the processing

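Over all alternatives, 378 recomputed log2 differences of the 6 genes kept their direction and their side of the threshold, 8 lost their call, 4 gained one and 8 turned in sign, of which 2 are among the 4 that gained a call. Those that turned, all in differences that had not passed the test, were in PGCLC_d3ag3 versus PGCLC_d3 Lin28b (0.0375 with median-of-ratios rescaling, 0.0615 with quantile normalization), L1td1 (0.0415 with rescaling; -0.5245 to 0.1945 without 1 library) and Utf1 (0.20 with rescaling; -0.0435 to 0.0275 without 1 library), and in PGCLC_d3ag3 versus ESC Trim71 (-0.6105 to 0.1045 without 1 library). The number of the 6 called higher in PGCLC_d3ag3 than in PGCLC_d3 was 2 with median-of-ratios rescaling, beside 35% of all tested genes. The TRIM71 list in PGCLC_d3 versus EpiLC had 5 called genes under either rescaling and 3 to 4 without 1 library. The cause was not tested. When a library is left out, the lone sample is assumed to vary like the other groups. All 66 recomputed counts of genes called stayed within 1.5 times the main count.

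Samples with the same replicate number did not deviate together across genes (r from -0.037 to 0.066). This cannot settle whether they share a culture or batch, which no label states. With a replicate block 9171 genes were called in EpiLC versus ESC, against 9129 without it, and no call of the 6 genes changed. With 2 libraries per group and unsettled depth in PGCLC_d3ag3, differences that did not pass the test may be undetected rather than absent.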
